A study of Mus musculus with 5 samples.

Results

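Apoptotic cell engulfment, by which a macrophage recognises, binds and takes up dying cells, was followed through 10 genes in Kupffer cells, the resident macrophages of the liver sinusoids, with and without Id3. They were chosen by symbol for their known role, and all 10 were found among the 46983 genes of the deposited count table. They comprise the receptors Timd4, Axl, Mertk, Tyro3 and Lrp1, the bridging proteins Gas6, Pros1 and Mfge8, and the signalling proteins Elmo1 and Dock1. RNA sequencing covered 5 mouse liver samples labelled as Kupffer cells, 3 heterozygous for Id3 (ID3+/-, replicates 1, 2 and 3) and 2 without it (ID3-/-, replicates 2 and 3). The Id3 protein, a helix-loop-helix inhibitor, holds E proteins off DNA. All groups therefore carry at least 1 disrupted Id3 allele, and no wild-type sample was analysed here. Every column of the count table carries the tag 3w, which the labels do not explain. The labels give neither the age of the mice, nor the part of Id3 that was removed, nor whether it was removed in the whole animal. Nothing in the labels ties the samples to separate animals, so p-values reflect the spread between these samples alone, which may be technical.

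Dying cells expose phosphatidylserine, a lipid that healthy cells keep on the inner face of the membrane. TIM-4, the product of Timd4, binds this lipid directly, whereas the TAM receptor tyrosine kinases Tyro3, Axl and Mertk bind it through the soluble proteins Gas6 and protein S (Pros1). Mfge8 bridges the lipid to integrins, and Lrp1 takes up many ligands, including complexes of calreticulin and C1q. Elmo1 and Dock1 form an exchange factor for the GTPase Rac, which drives the actin cup around the corpse. Timd4 is known as a marker of Kupffer cells of embryonic origin, and protein S is also a plasma protein made by hepatocytes.

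Gene counts summed to between 74.8M and 80.9M per library. Id3 was at 221 to 256 CPM (counts scaled to a common library size, with TMM factors between libraries) in the heterozygous and at 1.01 and 1.42 CPM in the knockout libraries, so each library matched its label. The 9 Kupffer cell markers in the table, among them Clec4f, Vsig4 and Cd5l, were present in every library, with summed levels of 48150 to 50800 CPM in the heterozygous and 46720 and 54000 CPM in the knockout libraries. The sum hides single genes, of which 2 passed as lower and 0 as higher (edgeR). Levels of single genes follow without these calls. Vsig4 was at 3317 to 3406 CPM against 2776 and 2893 CPM, and C6 at 490 to 574 CPM against 333 and 310 CPM. Cdh5, also counted among the endothelial markers below, was at 231 to 243 CPM against 190 and 181 CPM. Cd5l was at 7965 to 9831 CPM against 11830 and 10370 CPM, and Slc40a1 at 5725 to 6313 CPM against 7641 and 7038 CPM. Markers of other cells were present too. The summed level of 15 hepatocyte markers was 25800 to 30440 CPM in the heterozygous but 5592 and 12640 CPM in the knockout libraries (replicates 2 and 3). That of 11 neutrophil markers was 10.5 to 13.9 CPM against 229 and 40.8 CPM, and of the 8 tested, 6 passed as higher and 0 as lower (edgeR). Its largest parts in knockout replicate 2, Ngp (78.3 CPM) and Ltf (40.5 CPM), were at 0.465 and 0 CPM in knockout replicate 3. S100a8 was at 1.56 to 4.53 CPM against 38.65 and 15.86 CPM, and Retnlg at 1.88 to 6.43 CPM against 5.49 and 2.26 CPM. The summed level of 12 sinusoidal endothelial markers was 1347 to 1583 CPM against 1272 and 1236 CPM. Of these 12 endothelial markers, 3 passed as lower and 0 as higher (edgeR). Stab2, the largest part of their sum, was at 371 to 401 CPM against 414 and 355 CPM. Lyve1 was at 12.7 to 27.2 CPM against 4.06 and 4.24 CPM. The 8 monocyte markers summed to 679 to 892 CPM against 981 and 990 CPM, and 2 of them passed as higher (edgeR). Ly6c2, a defining gene of inflammatory monocytes, was at 0.412 to 1.08 CPM against 34.6 and 9.75 CPM. Reads assigned to no gene also differed, making up 47.0% to 48.6% of the total with 1 copy of Id3 and 40.0% and 42.8% without it. They include reads aligned to more than 1 place, which made up 38.3% to 41.0% of the aligned reads against 32.3% and 34.1%. The part of these cells and reads in the results below was not tested beyond the values given beside them.

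All 10 genes were tested between the genotypes, knockout minus heterozygous, within a fit over 16436 genes (edgeR quasi-likelihood test). Only Pros1, 1 of the 10, passed the threshold (an adjusted p under 0.05 after Benjamini and Hochberg), and it was lower in the knockout cells. None was higher (0 of 10 in edgeR, also 0 at an unadjusted p under 0.05, 0 in DESeq2 and 0 in limma-voom). Over all genes tested, 16.4% passed, 6.41% higher and 10.0% lower. Among the 9058 genes of at least 5 CPM on average, the share was 25.2%. A count of 1 of 10 is not above these shares. In 5 of the 10 genes the libraries of the genotypes stood apart, 2 with the knockout above and 3 with it below. The share of all genes tested was 51.5%, with 24.6% above and 26.9% below. The median log2 fold change of the 10 genes was -0.06, beside -0.02 for all genes tested.

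The stretches of 250 bases before the start sites of the 4 members with the smallest p-values are shown because E proteins, the partners that Id3 holds back, bind the E-box CANNTG. They come from RefSeq (GRCm38.p6) and run 5′ to 3′ on the gene's strand, with every CANNTG in capitals.
Pros1, chr16:62854057-62854306, plus strand: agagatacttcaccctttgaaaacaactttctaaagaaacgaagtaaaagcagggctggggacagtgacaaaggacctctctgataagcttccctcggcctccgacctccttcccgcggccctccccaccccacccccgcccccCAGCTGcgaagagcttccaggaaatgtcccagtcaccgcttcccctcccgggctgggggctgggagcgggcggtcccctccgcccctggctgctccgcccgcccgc
Mertk, chr2:128698665-128698914, plus strand: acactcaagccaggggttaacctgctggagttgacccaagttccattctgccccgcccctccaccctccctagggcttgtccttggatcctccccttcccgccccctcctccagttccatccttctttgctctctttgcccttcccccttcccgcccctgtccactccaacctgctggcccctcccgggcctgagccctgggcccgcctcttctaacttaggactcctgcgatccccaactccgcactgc
Timd4, chr11:46810549-46810798, plus strand: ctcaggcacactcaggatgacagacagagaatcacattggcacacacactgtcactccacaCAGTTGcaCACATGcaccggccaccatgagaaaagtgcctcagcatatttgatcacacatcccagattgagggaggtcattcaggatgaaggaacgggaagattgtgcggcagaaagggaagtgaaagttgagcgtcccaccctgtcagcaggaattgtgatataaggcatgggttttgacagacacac
Axl, chr7:25788734-25788983, minus strand: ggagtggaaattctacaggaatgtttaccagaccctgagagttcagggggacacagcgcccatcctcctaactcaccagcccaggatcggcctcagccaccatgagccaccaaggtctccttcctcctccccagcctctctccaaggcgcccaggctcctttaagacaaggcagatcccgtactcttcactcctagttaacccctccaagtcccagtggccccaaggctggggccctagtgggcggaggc
The Pros1 stretch held 1 E-box, of the form CAGCTG, and the Timd4 stretch 2 of other forms. The Mertk and Axl stretches held no CANNTG, which says only that these letters are not in this window. RefSeq gave 11 start sites for the 10 genes, 2 of them for Elmo1. CANNTG, which reads as CANNTG on both strands, was found before 6 of the 11, those of Pros1, Timd4, Gas6, Mfge8, Dock1 and 1 of the 2 of Elmo1. Among 32851 stretches of this length it was found in 66.2%. CAGCTG, 1 of the forms that CANNTG includes, was found in 13% of all stretches and among the members only before Pros1. CAGGTG, searched on both strands and also included in CANNTG, was found in 17.2% of all stretches and only before Elmo1 among the members. A match is a description of the sequence and not a binding site.

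Compared per length (CPM per kilobase of the longest GENCODE M21 transcript, mean over the 5 libraries), Axl was the most abundant of the 10 genes, with 775 ± 113 (SD, n = 5). Timd4 followed with 370 ± 34.3, Lrp1 with 134 ± 5.48 and Mertk with 54.8 ± 15.3 CPM per kilobase. Gas6 (29.3 ± 3.66), Pros1 (24.8 ± 8.71) and Elmo1 (16.4 ± 0.648) came next, then Mfge8 (7.43 ± 0.660) and Dock1 (3.00 ± 0.954). Tyro3 was the lowest, with 0.190 ± 0.0815 CPM per kilobase. Neighbours in this order did not overlap in any of the 5 libraries, except Gas6 with Pros1 and Pros1 with Elmo1. Receptors thus held the first 4 places and also the last.

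**Figure D1:**
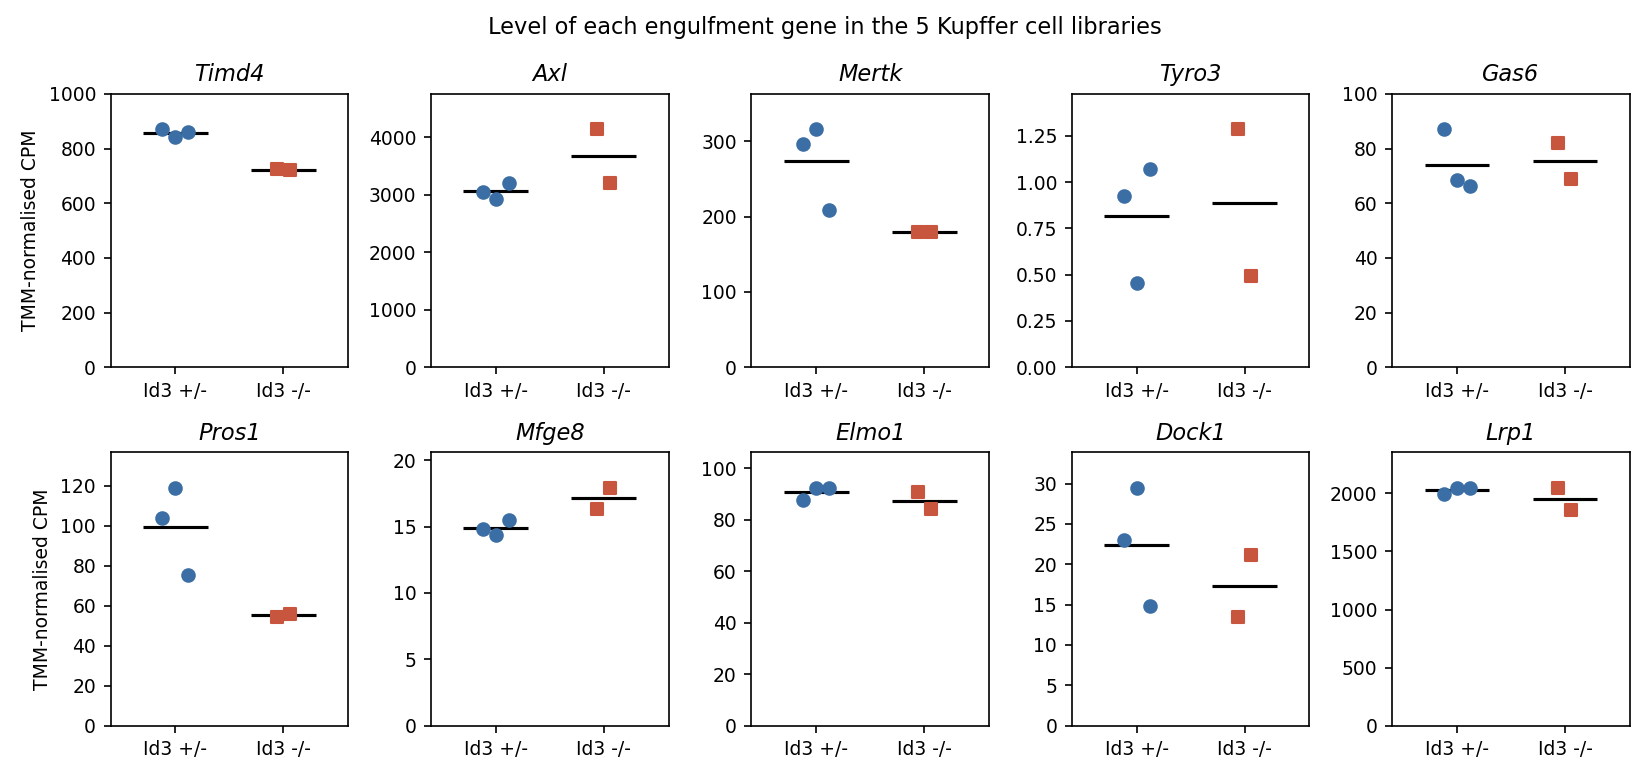
TMM-normalised CPM of each of the 10 genes (y axis, starting at 0) in the 3 heterozygous (circles) and 2 knockout libraries (squares), with lines at the group means. The groups stand apart in Timd4, Mertk and Pros1, which are lower in both knockout libraries, and in Axl and Mfge8, which are higher, while the other 5 genes overlap.

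Timd4, the receptor that binds phosphatidylserine itself, stood at 871, 844 and 859 CPM in the heterozygous and at 726 and 721 CPM in the knockout libraries. Both knockout libraries were below all heterozygous ones, and the libraries of a genotype lay close together (coefficient of variation 1.57% and 0.535%). On average the knockout level was 84.3% of the heterozygous level. The log2 fold change of -0.25 ± 0.07 (SE, n = 3 and 2) had a 95% interval from -0.43 to -0.07 but did not pass after adjustment over all genes (edgeR adjusted p = 0.071). It passed in DESeq2 (adjusted p = 0.0305) and in limma-voom (adjusted p = 0.0497). With offsets for transcript length and GC content the log2 fold change was 0.06 (edgeR adjusted p = 0.722), so its direction depended on that choice. The Timd4 transcript has a GC content of 44.4%, within the lowest 25% of genes tested, whose median log2 fold change was -0.45.

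Axl, the TAM receptor that inflamed macrophages use, is known to be present in Kupffer cells at rest. It was at 3043, 2925 and 3204 CPM in the heterozygous and at 4137 and 3209 CPM in the knockout libraries (replicates 2 and 3). Knockout replicate 2 stood clearly above the rest, whereas knockout replicate 3 was next to the highest heterozygous library. The log2 fold change was 0.26 ± 0.12 (SE, 95% interval -0.03 to 0.56) and did not pass (edgeR adjusted p = 0.185). Without knockout replicate 3 it was 0.45 and passed (edgeR adjusted p = 0.0295), and without knockout replicate 2 it was 0.07. Knockout replicate 2 also held the highest summed neutrophil and the lowest summed hepatocyte marker level. With a covariate for the mean hepatocyte marker level the value was -0.33 (edgeR adjusted p = 0.509). The summed hepatocyte markers did not overlap between the genotypes, so this fit cannot separate the covariate from the genotype. It called 0 of 16436 genes, and Id3 did not pass either (edgeR adjusted p = 0.0753).

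Mertk, the TAM receptor through which resting macrophages clear corpses, was at 296, 316 and 208 CPM in the heterozygous libraries. Both knockout libraries were at 179 CPM, below all 3. Heterozygous replicate 3 lay nearer to the knockout libraries than to the other heterozygous ones. The mean level without Id3 was 65.4% of that with 1 copy. The log2 fold change, -0.61 ± 0.18 (SE, 95% interval -1.06 to -0.17), did not pass (edgeR adjusted p = 0.0702). It passed in DESeq2 (-0.59, adjusted p = 0.00974), with a filter of at least 1 CPM in 2 samples (-0.58, edgeR adjusted p = 0.0401) and without heterozygous replicate 3 (-0.77, edgeR adjusted p = 0.0174). With length and GC offsets it was -0.37 (edgeR adjusted p = 0.18). The longest Mertk transcript, of 4.30 kilobases, is among the longest 25% of genes tested, whose median log2 fold change was -0.33. Over the other processings run, the value of Mertk stayed below 0.

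Tyro3, the TAM receptor best known from the nervous system, had the fewest counts of the 10 genes. It had 76, 36 and 78 counts in the heterozygous and 97 and 38 counts in the knockout libraries, or 0.456 to 1.07 CPM against 1.29 and 0.491 CPM. The groups overlapped in part, with knockout replicate 2 above and heterozygous replicate 2 below all the others. The log2 fold change of 0.12 ± 0.61 (SE, 95% interval -1.37 to 1.61, edgeR adjusted p = 0.922) does not exclude a change of 2-fold in either direction. The coefficient of variation was 39.3% over the heterozygous and 63.3% over the knockout libraries.

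Among the TAM receptors, compared per length, Axl made up 91.2%, 90.3% and 93.9% of the level in the heterozygous libraries, against 95.9% and 94.7% in those without Id3. Mertk made up 8.80%, 9.67% and 6.05% against 4.11% and 5.24%, and Tyro3 at most 0.0300%. The mean log2 ratio of Axl to Mertk was thus 3.52 ± 0.39 (SD, n = 3) in the heterozygous and 4.36 ± 0.26 (SD, n = 2) in the knockout libraries, or 11.4-fold and 20.6-fold. The groups did not overlap, but an exact two-sided permutation test gave p = 0.2 (adjusted p = 0.5 over the 6 pairs compared). With 3 samples against 2, the smallest p this test can give is 0.1. The ratio of Timd4 to Mertk overlapped between the genotypes (mean log2 ratios 2.66 ± 0.33 and 3.00 ± 0.008, exact permutation p = 0.4), as did that of Tyro3 to Mertk (-8.51 ± 0.92 and -7.87 ± 0.98, exact permutation p = 0.5).

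Lrp1, the large endocytic receptor of the low-density lipoprotein receptor family, was at 1995, 2043 and 2047 CPM in the heterozygous and at 2049 and 1858 CPM in the knockout libraries. Its groups overlapped, and the log2 fold change of -0.05 ± 0.08 (SE, edgeR adjusted p = 0.693) had a 95% interval from -0.25 to 0.14. Of the partners of Lrp1, calreticulin (Calr), a chaperone that also acts on the cell surface as an eat-me signal, was lower in the knockout cells, at 896 ± 90.0 CPM against 1277 ± 77.1 CPM (-0.51 ± 0.10 in log2 fold change, edgeR adjusted p = 0.0244). Lrpap1, the chaperone that escorts Lrp1 to the surface, did not pass, with 209 and 235 CPM (edgeR adjusted p = 0.406). Calr no longer passed when heterozygous replicate 1 (-0.54), heterozygous replicate 2 (-0.53) or knockout replicate 2 (-0.41) was left out.

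Pros1 was the member that passed. It encodes protein S, a ligand of Tyro3 and Mertk and a cofactor of blood anticoagulation. The heterozygous libraries held 104, 119 and 75.5 CPM, from 8519, 9393 and 5503 counts, while 54.5 and 56.1 CPM (4111 and 4341 counts) were left in the knockout libraries. Both knockout libraries were below all heterozygous ones, of which replicate 3 was again the lowest. The mean without Id3 was 55.6% of that with 1 copy, or -0.85 ± 0.20 in log2 fold change (SE, n = 3 and 2, 95% interval -1.32 to -0.37, edgeR adjusted p = 0.0361). By p it ranked 2026th of 16436 genes, and 16.9% of all genes tested had a log2 fold change as low or lower. The call was lost without heterozygous replicate 1 (-0.81, edgeR adjusted p = 0.0997) or 2 (-0.69, 0.0958) and without knockout replicate 2 (-0.83, 0.13) or 3 (-0.86, 0.0939), and was kept only without heterozygous replicate 3 (-1.01). It was also lost with length and GC offsets (-0.43, edgeR adjusted p = 0.141), and the transcript's GC content of 43.4% is among the lowest 25%.

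In both knockout libraries, Pros1 and the summed hepatocyte markers were below all heterozygous libraries. In percent of the heterozygous mean, Pros1 was at 104, 120 and 76.0 with 1 copy of Id3 and at 54.8 and 56.4 without it, and the summed hepatocyte markers at 98.5, 109 and 92.4 against 20.0 and 45.3. Of the 15 hepatocyte markers, 12 were lower and 0 higher (edgeR). In knockout replicate 3, however, Ttr (411 CPM) and Apoa2 (1346 CPM) were above all heterozygous libraries (273 to 292 and 953 to 982 CPM). In knockout replicates 2 and 3, the hepatocyte markers summed to 5592 and 12640 CPM, and Pros1 was at 54.5 and 56.1 CPM. A link between these levels was not tested. With the hepatocyte marker covariate, Pros1 changed by -0.69 and did not pass (edgeR adjusted p = 0.657), in a fit that called 0 genes of 16436 (1918 at an unadjusted p under 0.05). In bulk samples, fewer cells of a type and less RNA per cell cannot be told apart.

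**Figure D2:**
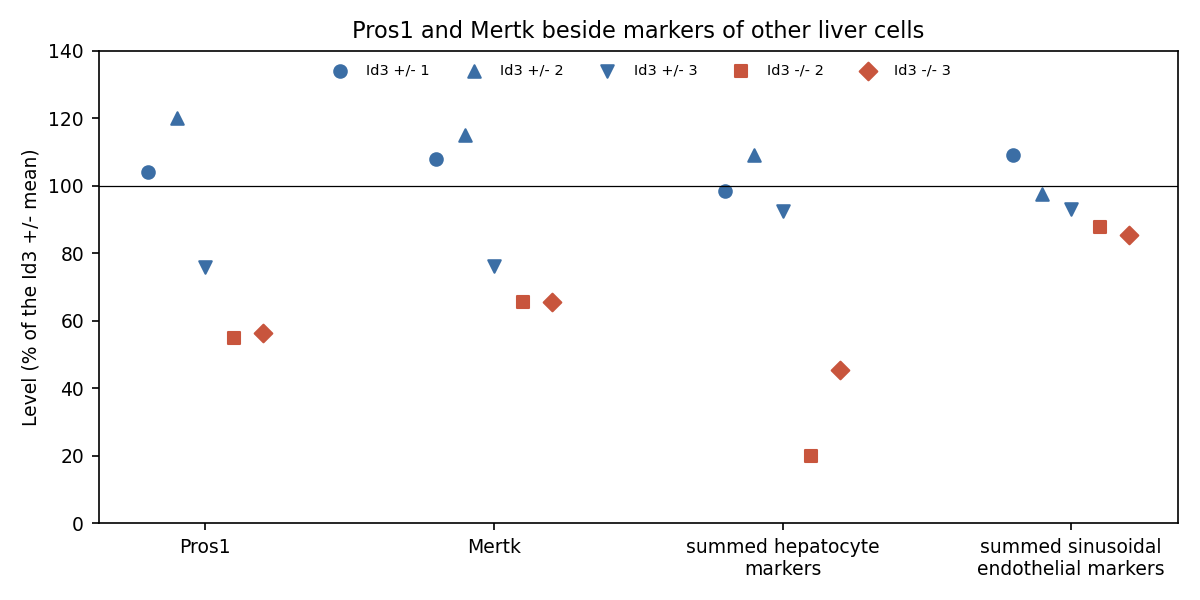
Pros1, Mertk and the summed hepatocyte and sinusoidal endothelial markers in each library, as a percentage of the heterozygous mean (y axis, starting at 0). Pros1 is at 54.8 and 56.4 in the knockout libraries (red), where the hepatocyte markers are at 20.0 and 45.3 and the endothelial markers at 87.9 and 85.4. Of the 12 endothelial markers in the sum, 3 passed as lower and 0 as higher.

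Gas6, the ligand of all 3 TAM receptors, was at 87.1, 68.5 and 66.4 CPM in the heterozygous and at 82.0 and 68.8 CPM in the knockout libraries. The groups overlapped, and the log2 fold change of 0.03 ± 0.15 (SE, edgeR adjusted p = 0.931) had a 95% interval from -0.35 to 0.40. Its sign changed with heterozygous replicate 2 or 3 or knockout replicate 2 left out. Between the TAM ligands, Pros1 made up 47.9%, 57.3% and 46.7% of the level per length with 1 copy of Id3, and 33.9% and 38.6% without it. The mean log2 ratio of Pros1 to Gas6 was 0.04 ± 0.34 (SD, n = 3) and -0.82 ± 0.21 (SD, n = 2), groups that did not overlap. The exact two-sided permutation test gave the smallest p it can give, 0.1 (adjusted p = 0.5 over the 6 pairs).

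Mfge8, the bridge to integrins, was at 14.9, 14.4 and 15.5 CPM in the heterozygous and at 16.3 and 17.9 CPM in the knockout libraries. Both knockout libraries were above all heterozygous ones, but the log2 fold change of 0.20 ± 0.13 (SE, 95% interval -0.12 to 0.53) did not pass (edgeR adjusted p = 0.353). With length and GC offsets it was -0.05. The ratio of Mfge8 to Gas6 overlapped between the genotypes (mean log2 ratios -2.04 ± 0.23 and -1.87 ± 0.28, exact permutation p = 0.5). The integrin chains known to receive Mfge8, named here after their values were seen, did not pass either. Itgav was at 78.8, 92.9 and 52.1 CPM in the heterozygous and at 44.1 and 39.0 CPM in the knockout libraries (log2 fold change -0.84 ± 0.24, edgeR adjusted p = 0.0649). Itgb5 was at 1107 ± 20.4 and 1365 ± 282 CPM (edgeR adjusted p = 0.164), and Itgb3 at 5.33 ± 1.04 and 4.53 ± 2.85 CPM (edgeR adjusted p = 0.762). Without heterozygous replicate 3, Itgav passed (-1.04), and without knockout replicate 3, Itgb5 passed (0.51).

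Elmo1, the scaffold that recruits Dock proteins to the membrane, was at 87.8, 92.3 and 92.4 CPM in the heterozygous and at 90.5 and 84.0 CPM in the knockout libraries. The groups overlapped (log2 fold change -0.06 ± 0.09, 95% interval -0.27 to 0.16, edgeR adjusted p = 0.714). Dock1, the exchange factor first known for this pathway, was at 22.9, 29.5 and 14.9 CPM against 13.4 and 21.2 CPM. Its heterozygous libraries alone spanned the knockout mean of 17.3 CPM, and its log2 fold change of -0.37 ± 0.33 (SE, 95% interval -1.17 to 0.42) did not pass (edgeR adjusted p = 0.485). The log2 ratio of Dock1 to Elmo1 was -2.39 ± 0.51 and -2.69 ± 0.54 and overlapped between the genotypes (exact permutation p = 0.5). The paralogs Elmo2, Dock2 and Dock5, named here after their values were seen, were at 302 and 330, at 88.6 and 63.9, and at 16.2 and 8.25 CPM in the heterozygous and knockout libraries. None of them passed (edgeR adjusted p = 0.488, 0.214 and 0.0538). Dock2 is the form best known from blood cells.

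**Figure D3:**
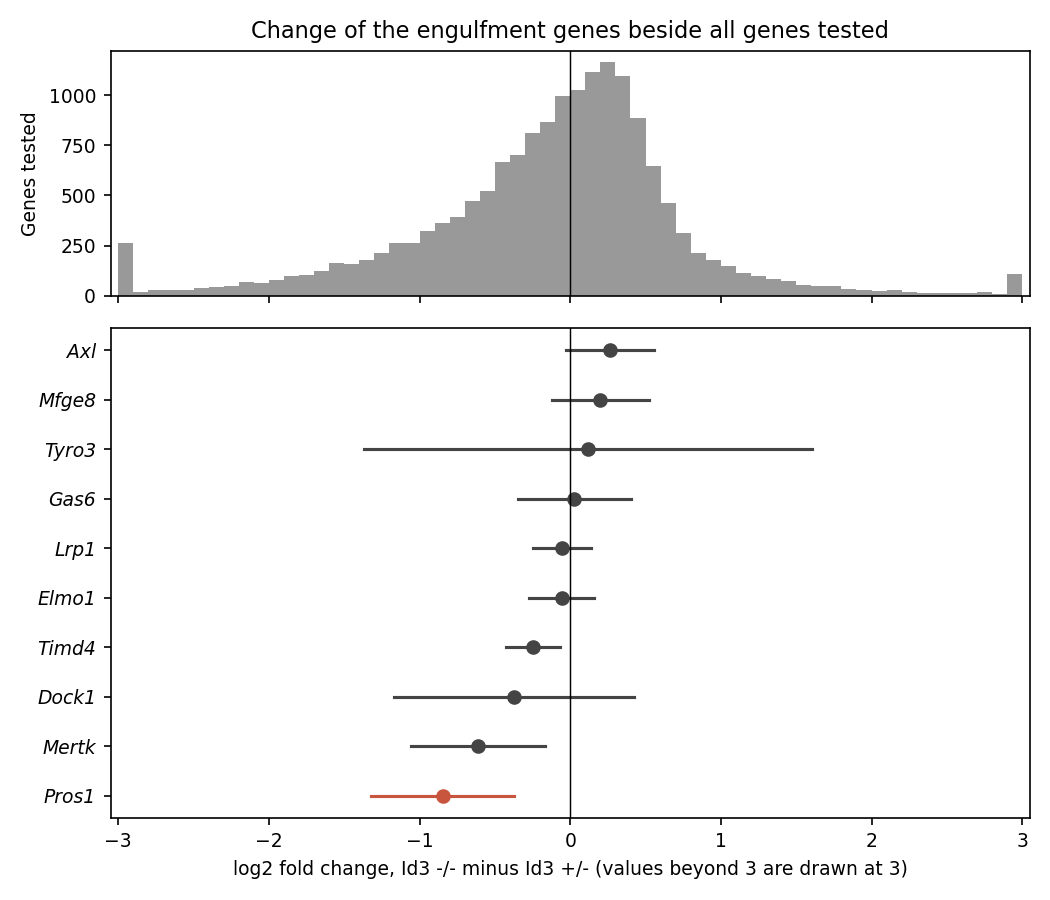
Log2 fold change of each of the 10 genes, knockout minus heterozygous, with its 95% interval from the edgeR fit (bottom, Pros1 in red as the gene that passed), below the distribution over all 16436 genes tested (top, number of genes in steps of 0.1). The intervals of Timd4, Mertk and Pros1 lie below 0, and those of the other 7 genes include 0.

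The choice of processing bore on the 4 members with the smallest p-values in different ways. Pros1 stayed below 0 in all 17 alternatives run, between -1.01 and -0.43, but lost its call in 8 of them. Mertk also stayed below 0 in all 17, between -0.77 and -0.37, and passed in 3. Timd4 passed in 2 and was above 0 in 1, the offsets for length and GC content. Axl passed in 1 and was below 0 in 1, the hepatocyte covariate.

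**Figure D4:**
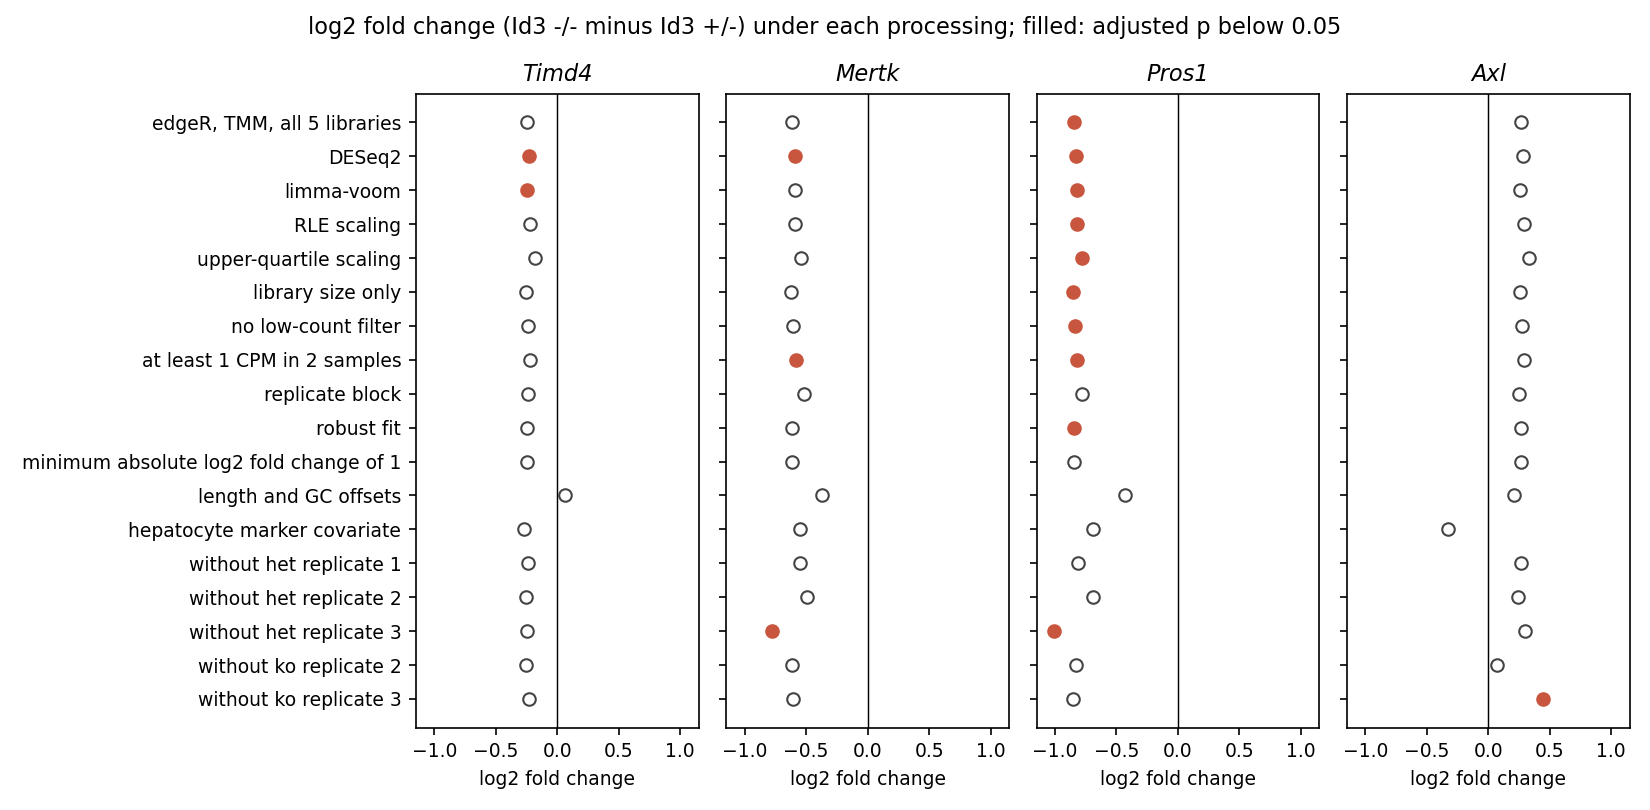
Log2 fold change, knockout (ko) minus heterozygous (het), of Timd4, Mertk, Pros1 and Axl (x axis) under the reported processing (top line) and 17 alternatives, filled where the adjusted p is below 0.05. Pros1 is filled in 10 of the 18 lines, and Mertk, Timd4 and Axl in 3, 2 and 1.

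The genes around the members were read from 6 lists of the engulfment pathway, without the members themselves. Of 91 genes tested, 15 were higher and 13 lower, which is 30.8%, beside 16.4% of all genes tested and 25.2% of those of at least 5 CPM. Among 18 other receptors for dying cells, 3 were higher and 1 lower. Cd300lb, an activating receptor that binds phosphatidylserine, rose to 299 ± 17.2 CPM in the knockout cells, beside 131 ± 7.20 CPM (1.20 ± 0.09 in log2 fold change, edgeR adjusted p = 0.00369). Jmjd6, once taken for a phosphatidylserine receptor and now known as a nuclear hydroxylase, rose by 0.74 ± 0.10, and the lipoprotein receptor Scarb1 by 0.53 ± 0.09. The scavenger receptor Msr1 was lower, by -0.78 ± 0.14 (edgeR adjusted p = 0.0201). Among 9 inhibitory receptors and their partners, 2 were higher and 0 lower (1 lower at an unadjusted p under 0.05, 1 in DESeq2 and 1 in limma-voom). These were Sirpa, which receives the don't-eat-me signal CD47 (0.60 ± 0.07), and Cd300a, an inhibitory phosphatidylserine receptor (0.55 ± 0.09).

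Among 14 other bridging or Lrp1-binding molecules, 2 were higher and 2 lower. C1qb and C1qc, chains of the complement component that coats dying cells, rose by log2 fold changes of 0.36 ± 0.09 and 0.38 ± 0.09, while the third chain, C1qa (0.29 ± 0.09), did not pass (edgeR adjusted p = 0.084). With length and GC offsets these 3 values were -0.09, -0.04 and -0.20. Besides Calr, the mannose-binding lectin Mbl1, which hepatocytes secrete, was lower (-1.47 ± 0.36), in the libraries whose hepatocyte markers were also lower. Of 19 signalling genes and actin adaptors, 1 was higher and 3 lower. The GTPase Rhog, which activates Elmo, rose by 0.52 ± 0.10, and the adaptor Crk (-1.11 ± 0.19), the GTPase Cdc42 (-0.38 ± 0.08) and Elmo3 (-1.65 ± 0.25) were lower. Rac1, the GTPase that Dock1 activates, did not pass, with 620 and 596 CPM (edgeR adjusted p = 0.67), nor did Rac2 (0.40 ± 0.12, edgeR adjusted p = 0.0757).

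Among 14 genes that shed the TAM receptors or act below them, 2 were higher and 3 lower. The lower ones included both metalloproteases known to cut Axl and Mertk from the cell surface. Adam10 was at 81.0, 103 and 59.3 CPM in the heterozygous and at 22.6 and 20.1 CPM in the knockout libraries, which did not overlap (log2 fold change -1.92 ± 0.24, edgeR adjusted p = 0.00997). Adam17 was at 149, 202 and 135 CPM against 77.0 and 89.1 CPM (-0.96 ± 0.19, edgeR adjusted p = 0.0245). Socs3, a feedback inhibitor of cytokine signalling that TAM receptors induce, rose from 10.00 ± 0.263 to 23.7 ± 1.25 CPM (1.25 ± 0.13), and Nr1h2, the gene of LXR beta, by 0.60 ± 0.11. Of 17 genes of corpse digestion and cholesterol efflux, 5 were higher and 4 lower. Cybb, the oxidase subunit used in LC3-associated phagocytosis, went from 176 ± 40.5 to 55.1 ± 4.80 CPM (-1.68 ± 0.21), and the lysosomal membrane protein Lamp2 changed by -0.95 ± 0.14. Map1lc3a, an LC3 gene, and Dnase2a, the lysosomal DNase that digests corpse DNA, rose by 0.69 ± 0.10 and 0.56 ± 0.09.

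Calls in these lists depended on single libraries. Of the 22 passing genes taken by the rule for named genes, 4 kept the call whichever of the 5 libraries was left out: Cd300lb, Socs3, Adam10 and Cybb. Leaving out heterozygous replicate 1 ended the call of 17 of the 22. It was lost by 17 without heterozygous replicate 2, by 1 (Mbl1) without heterozygous replicate 3, by 12 without knockout replicate 2 and by 5 without knockout replicate 3. Over the 6 lists, 28 genes passed, and 5, 5, 30, 11 and 28 passed in these fits in the same order. With length and GC offsets 9 of the 22 kept the call: Cd300lb, Calr, Mbl1, Elmo3, Socs3, Adam10, Cybb, Sirpa and Cd300a.

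**Figure D5:**
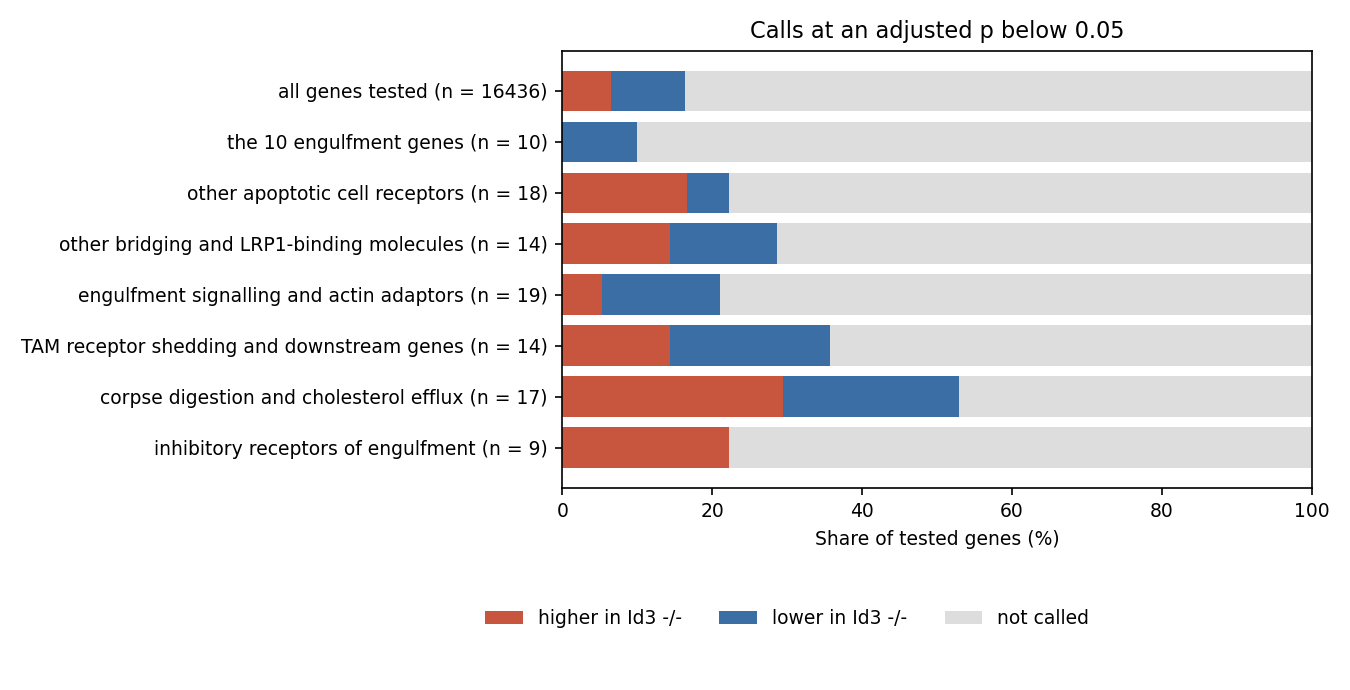
Share of tested genes called higher (red), lower (blue) or not called (grey) at an adjusted p below 0.05, for all 16436 genes tested, the 10 engulfment genes and the 6 lists around them. The 10 engulfment genes have 1 lower call, while the list of corpse digestion and cholesterol efflux has 9 calls among 17 genes.

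The genes most like 3 of the receptors in pattern were sought among 9058 genes of at least 5 CPM, by the root mean square difference of log2 CPM over the 5 libraries after each gene was centred at its mean. For Timd4 they were Faf2 (0.022), Glo1 (0.022) and Akr1c13 (0.026). For Axl they were Tmem43 (0.018), Uckl1 (0.026) and Aldh16a1 (0.027), and for Mertk Frmd4b (0.027), Fem1b (0.039) and Ipo8 (0.040). With 5 libraries, such likeness is a description only.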

How the data were processed

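Poly-A RNA of 5 Kupffer cell samples was amplified (SMART-seq V4) and sequenced, per the labels. The authors deposited raw counts, 1 column per sample. The submitters' processing notes name HTSeq 0.5.4, DESeq 1.18.0, R 3.1.2 and build mm9. No aligner, annotation release or strand setting is given in the sources used here, so reads of overlapping antisense genes cannot be told apart. Entries naming no gene, which include reads aligned to more than 1 place, were left out. Their share was 47.0% to 48.6% with 1 copy of Id3 and 40.0% and 42.8% without it.

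The quasi-likelihood test of edgeR 4.0.16 (R 4.3.3) was run after filterByExpr and TMM scaling on all 5 samples without covariates, with Benjamini-Hochberg adjustment over 16436 genes. SE is the log2 fold change divided by the square root of F. Levels are TMM-normalised CPM with SD over samples. Lengths and GC content are from the longest coding transcript in GENCODE M21 (16389 tested genes matched) and promoters from RefSeq GRCm38.p6 (all 10 members matched by symbol). Both belong to a later build than mm9, and the counts carry no coordinates. Every pair of libraries differed by more than sampling noise (chi-square over its degrees of freedom at least 30.6).

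The members, lists and tests were chosen with earlier results of these data known. Named genes were all members, up to 4 passing and 2 other genes per list, and 3 nearest patterns for Timd4, Axl and Mertk. Of the other genes per list, the text gives only Rac1, Rac2, C1qa and Itgb5. Other partners of members were added after their values were seen. A further passing gene of the lists is not reported here. In simulated knockout against heterozygous data with 200 changed genes (3 runs, 15871 genes tested on average), edgeR found 35.4% of changes of 1 and 60.1% of changes of 2 on the log2 scale, and 5.96% of its calls were false. The reported fit called 2698 of 16436 genes, many more than were changed in the simulation, so these shares need not hold for it. Alternatives were DESeq2 1.42.0, limma-voom (limma 3.58.1), 3 scalings, 2 filters, a replicate block, a robust fit, a minimum fold, length and GC offsets, a hepatocyte marker covariate and leaving out each sample. No sample column was left unused.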

Additional observations from a re-analysis of the deposited data

How the results depend on the processing

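Of the 10 members, 1 was called as reported (3 at an unadjusted p under 0.05 in edgeR). DESeq2 called 3 (Timd4, Mertk and Pros1), limma-voom 2 (Timd4 and Pros1) and a filter of at least 1 CPM in 2 samples 2 (Mertk and Pros1). None was called with a minimum absolute log2 fold change of 1 (0 members, 0 of the pathway genes and 99 of all genes), with length and GC offsets (0 members, 11 pathway genes, 1575 of all genes) or with the hepatocyte marker covariate (0 members, 0 pathway genes, 0 of all genes; 0, 15 and 1918 at an unadjusted p under 0.05). At an unadjusted p under 0.05 the offsets gave 3 members and the minimum fold 0. With 1 library left out, the calls ran from 0 to 2 members, 5 to 30 pathway genes and 335 to 2540 of all genes. A fit without a knockout replicate assumes that the lone sample varies like the other group. The reported counts were 28 pathway genes and 2698 of all genes, and DESeq2 gave 44 and 4629. The cause of these differences was not tested. Fits on 4 samples ranged from 335 calls without heterozygous replicate 2 to 2540 without heterozygous replicate 3.

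With the replicate block over replicates 2 and 3, which leaves fewer residual degrees of freedom, edgeR called 0 members (1 at an unadjusted p under 0.05), 0 pathway genes and 1 of all genes, Id3. Deviations from the group mean correlated at -0.03 and -0.06 between samples sharing a number. With only 2 knockout samples these deviations mirror each other, so this check cannot exclude pairing. The reported fit had no block because only 2 replicate numbers are shared between the genotypes.

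Log2 fold changes took the opposite sign as follows. Upper-quartile scaling, which moved the median of all genes from -0.02 to 0.05, gave Elmo1 0.010, Lrp1 0.013 and Rac1 0.012. Length and GC offsets gave Timd4 0.062, Gas6 -0.19, Mfge8 -0.053, Elmo1 0.313, C1qb -0.090, C1qc -0.039, C1qa -0.197, Cdc42 0.006 and Rac1 0.157. The hepatocyte covariate gave Axl -0.325, Tyro3 -2.37, Gas6 -0.417, Dock1 0.74, Mbl1 0.334, Itgb5 -0.364, Elmo2 -0.308 and Lrpap1 -0.415. With 1 library left out, values ran through 0 for 7 genes: Tyro3 (-0.735 to 0.664, negative without heterozygous replicate 2 or knockout replicate 2), Gas6 (-0.107 to 0.161, negative without heterozygous replicate 2 or 3 or knockout replicate 2), Elmo1 (-0.114 to 0.006), Lrp1 (-0.128 to 0.025), Itgb3 (-1.08 to 0.308), Elmo2 (-0.014 to 0.267) and Lrpap1 (-0.037 to 0.364). Elmo1, Lrp1 and Itgb3 were positive without knockout replicate 3, and Elmo2 and Lrpap1 negative without knockout replicate 2. The differences in log2 ratio between the genotypes also ran through 0 for Tyro3 to Mertk (-0.055 to 1.34, negative without knockout replicate 2), Dock1 to Elmo1 (-0.680 to 0.084, positive without knockout replicate 2) and Mfge8 to Gas6 (-0.027 to 0.362, negative without knockout replicate 3). None of the values of opposite sign passed. Of the members Tyro3 had the lowest depth, 36 to 97 counts per library. What limits its precision was not tested.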
